A study of Mus musculus with 40 samples.

Results

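The clustered histone genes are the 68 genes of a 24062-gene count table whose symbol starts with Hist1h, Hist2h, Hist3h or Hist4h. Membership went by symbol alone, while the set was chosen with earlier results of these data known. RNA-Seq was done on primary mouse embryonic fibroblasts (MEFs), cultured connective tissue cells taken from embryos of 13.5 days post coitum and used at passage 3, on a mixed C57BL/6J-129P2OlaHsd background. The embryos were WT, heterozygous (Het) or knockout (KO) for Sall2, a zinc-finger transcription factor whose gene was targeted in 129P2-derived embryonic stem cells. Cells were left untreated (control) or were given 1 µM doxorubicin, a DNA-intercalating topoisomerase II poison, for 16 h, which the study used as an environmental perturbation of gene expression. The 5 control libraries comprised 1 WT, 1 Het and 3 KO cultures, and the 4 distinct doxorubicin libraries comprised 1 WT, 1 Het and 2 KO cultures, since the third KO doxorubicin column held the same count as the second for each of 24062 genes and was left out. Het and KO cells also carry a 129P2-derived segment around the targeted gene, so the allele and its flanking genome cannot be told apart.

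Histone proteins package DNA into nucleosomes, in which DNA is wrapped around a core of H2A, H2B, H3 and H4, while H1 binds the DNA between cores. Most clustered histone genes are expressed in step with DNA replication, and their mRNAs usually end in a conserved stem-loop, bound by the stem-loop binding protein SLBP, instead of a poly(A) tail. Some of these genes can also give longer, polyadenylated mRNAs, which are known from cells that have left the cycle. The labels state that total RNA was depleted of rRNA and that mRNA was then enriched with a stranded mRNA kit. Counts per gene do not show which of the 2 mRNA forms was sequenced.

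In the GENCODE annotation of GRCm38, 43 of the 68 members held the letters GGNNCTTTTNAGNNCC, where N is any base, in their longest transcript, searched on the transcribed strand. The stem-loops of 5 members with high counts or large differences are printed here 5′ to 3′ to show how closely the 3′ ends resemble each other, with the stem and loop in capitals and 5 flanking bases on each side in lower case.

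Hist1h1c: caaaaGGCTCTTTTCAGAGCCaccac
Hist3h2a: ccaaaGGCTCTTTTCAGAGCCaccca
Hist1h2bk: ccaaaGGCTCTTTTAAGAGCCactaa
Hist1h3b: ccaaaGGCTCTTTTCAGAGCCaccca
Hist1h4i: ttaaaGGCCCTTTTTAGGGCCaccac

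The capital letters of Hist1h1c, an H1 gene, were the same as those of Hist3h2a and Hist1h3b, and the same 16 letters occurred in 25 members. The transcripts did not end alike. Past the stem-loop, that of Hist1h3b went on for 51 bases and that of Hist1h2bk for 30, against 840 for Hist1h1c, 1643 for Hist3h2a and 330 for Hist1h4i. In 25 members the letters were not found in the annotated transcript, among them Hist1h1a and Hist1h2bc. Many of these transcripts are short, such as those of Hist1h2bn (381 bases) and Hist1h2an (393), and may be annotated without their 3′ end. Their genes are thus not shown to lack a stem-loop.

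Libraries held between 15560728 and 24122414 counts. Counts on the members made up 0.0119% to 0.0430% of the control libraries and 0.0470% to 0.116% of the doxorubicin libraries. Sall2, the targeted gene, lay at 38.1 CPM (counts scaled to 1000000 per library) in the WT control, 24.0 in the Het control and 19.1 to 24.4 in the KO controls, and at 9.36 in the WT, 7.80 in the Het and 3.72 to 4.19 in the KO doxorubicin libraries, so KO libraries still held counts on the gene. All 9 fibroblast markers, such as Col1a1 and Vim, were counted, at a summed 10310 to 51420 CPM in control and 12450 to 37050 CPM with doxorubicin, against 41.0 to 282 and 35.3 to 319 CPM for 6 macrophage markers. The sum of 3 epithelial markers was 0.135 to 0.983 CPM in control and 3.76 to 4.74 CPM with doxorubicin, with no overlap. The 4 endothelial markers summed to 16.8 to 46.6 and 33.4 to 89.5 CPM and the 4 glial markers to 3.32 to 39.6 and 13.04 to 25.9 CPM. Of 3 red cell markers, Hba-a1 and Hbb-bs had no count, and the sum was 0.282 to 0.631 and 0.0996 to 0.571 CPM. Libraries Het-1 control, KO-3 control and Het-1 doxorubicin stood apart: 10 interferon-stimulated genes summed to 2241, 2463 and 1428 CPM there, against 46.8 to 64.6 CPM in the other controls and 336 to 429 CPM in the other doxorubicin libraries. The nucleolar RNA Rmrp, which carries no poly(A) tail, had 150, 237 and 270 counts in these libraries and 1407 in the KO-2 control, against 22 to 54 elsewhere. The pre-ribosomal transcript Rn45s was likewise at 5779, 6347 and 18970 CPM in these libraries and at 38520 CPM in the KO-2 control, against 474 to 1648 CPM elsewhere. The part of these marker and library differences in the results was not tested. Counts with and without the 3 libraries high in interferon-stimulated genes are given.

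Most clustered histone genes were higher with doxorubicin. Of the 68 members, 50 had enough counts to be tested, and 43 of these rose with doxorubicin by edgeR's quasi-likelihood test at a false discovery rate (FDR) under 0.05, while 1 fell, Hist1h1c. Over all 14883 genes tested, 28.5% rose and 28.1% fell. The median log2 fold change was 2.61 over the tested members and -0.02 over all genes tested. A gene could pass the filter on low counts through the doxorubicin libraries alone, so these counts are a description of the members that passed. In the control libraries taken alone, 14 members passed the filter, of which 9 rose and 1 fell with doxorubicin, against 21% and 33.1% of the 12514 genes that passed in the same way. Every doxorubicin library lay above every control library for 42 of the 50 tested members, against 23% of all genes tested, and below for 1, against 24.3%. Without the 3 libraries high in interferon-stimulated genes, an alternative added once the values were known, 46 of 49 tested members rose and 1 fell, where 11180 of 14629 genes passed in either direction. Most genes thus passed there, and the share of them that rose is not given here. In bulk RNA, fewer cells of a kind and less RNA per cell cannot be told apart.

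**Figure D1:**
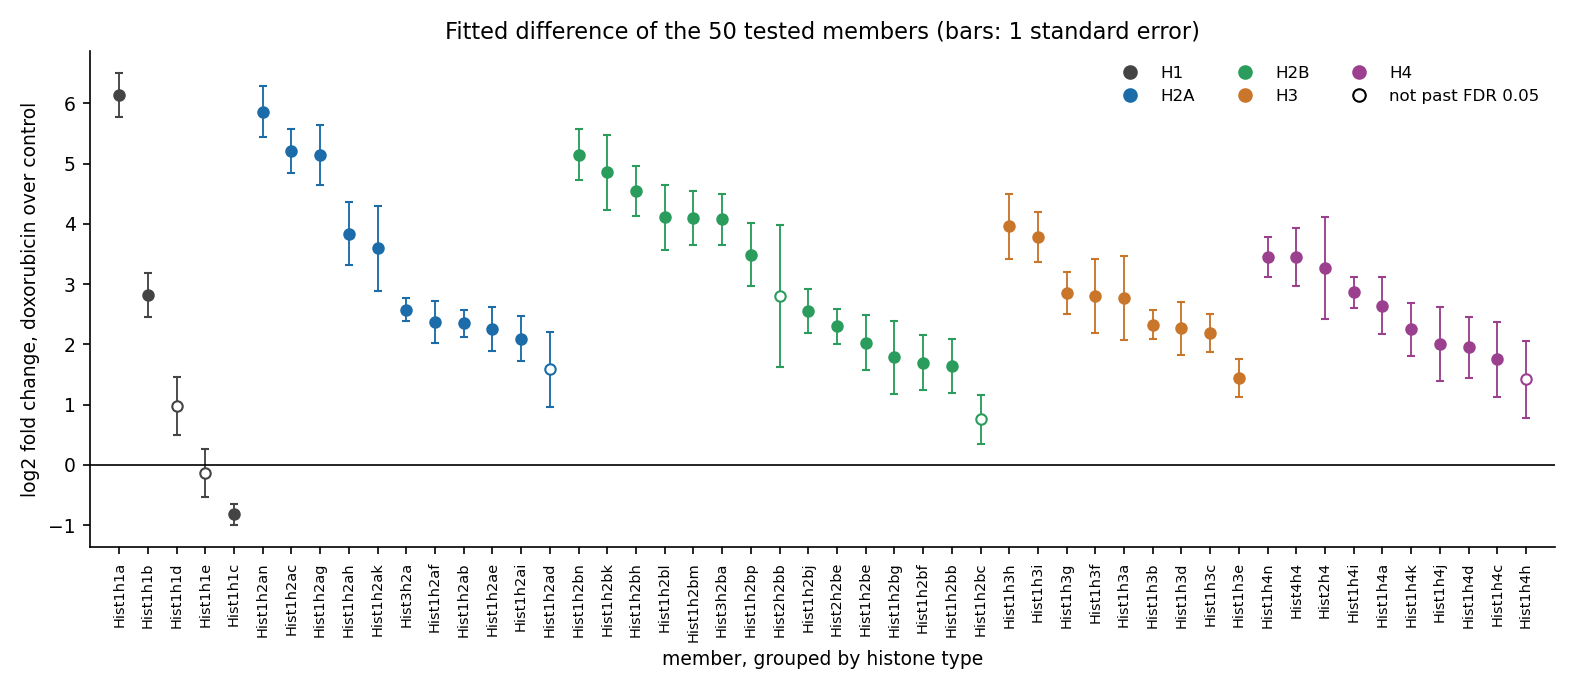
Log2 fold change of doxorubicin over control for the 50 tested members, grouped by histone type (H1, H2A, H2B, H3, H4) on the horizontal axis, with bars of 1 standard error and open symbols for members not past an FDR of 0.05. Points run from 6.14 for Hist1h1a to -0.82 for Hist1h1c, and the points below 0 are Hist1h1c and Hist1h1e.

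The remaining 18 members were too low to test. Of these, 7 had no count in any library: Hist1h2ao, Hist1h2ap, Hist1h2bq, Hist1h2br, Hist2h2aa1, Hist2h2aa2 and Hist2h3c2. Their transcripts share sequence with other genes: between 59.4% and 100% of the 150-base windows of their transcripts, the length of a read, also occurred in a transcript of another gene that does not overlap them, against a median of 17.4% for the 61 members with a count. Some members with counts shared as much, such as Hist1h3h (90.5%, 199 counts in all), Hist1h2ai (86.1%, 167), Hist1h2ah (84.8%, 251) and Hist1h4n (77.2%, 821). The sources used here do not give how reads with several alignments were counted, so values of members with a close copy are uncertain. The strand setting is not given either, and 24 members overlap another annotated gene, of which 14 were tested and 11 rose. Of the members without an overlap, 36 were tested and 32 rose, against 28.5% of all genes tested. Among the untested members with counts, Hist1h1t, the H1 gene known from testis, had 0 counts in all 5 control libraries and 7, 7, 4 and 3 in the WT, Het, KO-1 and KO-2 doxorubicin libraries. Against a floor of 3 counts per library, it was at least 1.77-fold higher.

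Summed by type, the fold between the groups ran from 1.18 for H1 to 6.59 for H2A. Summed over members, H2A went from 23.9 ± 7.01 CPM (SD, n = 5) in control to 157 ± 19.5 (SD, n = 4) with doxorubicin, a 6.59-fold difference, H3 from 9.96 ± 3.90 to 56.1 ± 14.2, 5.63-fold, and H4 from 16.3 ± 9.38 to 85.1 ± 36.2, 5.22-fold. In these 3 types no doxorubicin library overlapped a control library. H2B went from 113 ± 74.8 to 255 ± 82.1 CPM, 2.25-fold, and the groups overlapped, with 197 CPM in the KO-3 control and 196 CPM in KO-1 with doxorubicin. H1 went from 62.4 ± 13.5 to 73.7 ± 5.57 CPM, 1.18-fold, with overlap. Summed values carry no test. The sum over all 68 members was 144, 344, 153, 148 and 341 CPM in the WT, Het, KO-1, KO-2 and KO-3 controls, and 562, 856, 506 and 583 CPM in the WT, Het, KO-1 and KO-2 doxorubicin libraries. The Het-1 and KO-3 controls, 2 of the libraries high in interferon-stimulated genes, held the highest control sums, and their sums remained under those of the doxorubicin libraries. Between libraries of the same genotype and number, the ratio of doxorubicin to control was 3.90 in WT, 2.49 in Het, 3.31 in KO-1 and 3.95 in KO-2.

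A single member made up much of the H1 and H2B sums. Hist1h1c held 89.2% to 96.4% of the H1 counts in control and 34.9% to 51.8% with doxorubicin. Hist1h2bc held 80.6% to 88.9% of the H2B counts in control and 60.2% to 65.5% with doxorubicin. Without the member with the most counts of each type, the log2 ratio of the H1 sums was 3.03 in place of 0.24, that of the H2B sums 2.75 in place of 1.17, and that of all members 2.69 in place of 1.47.

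**Figure D2:**
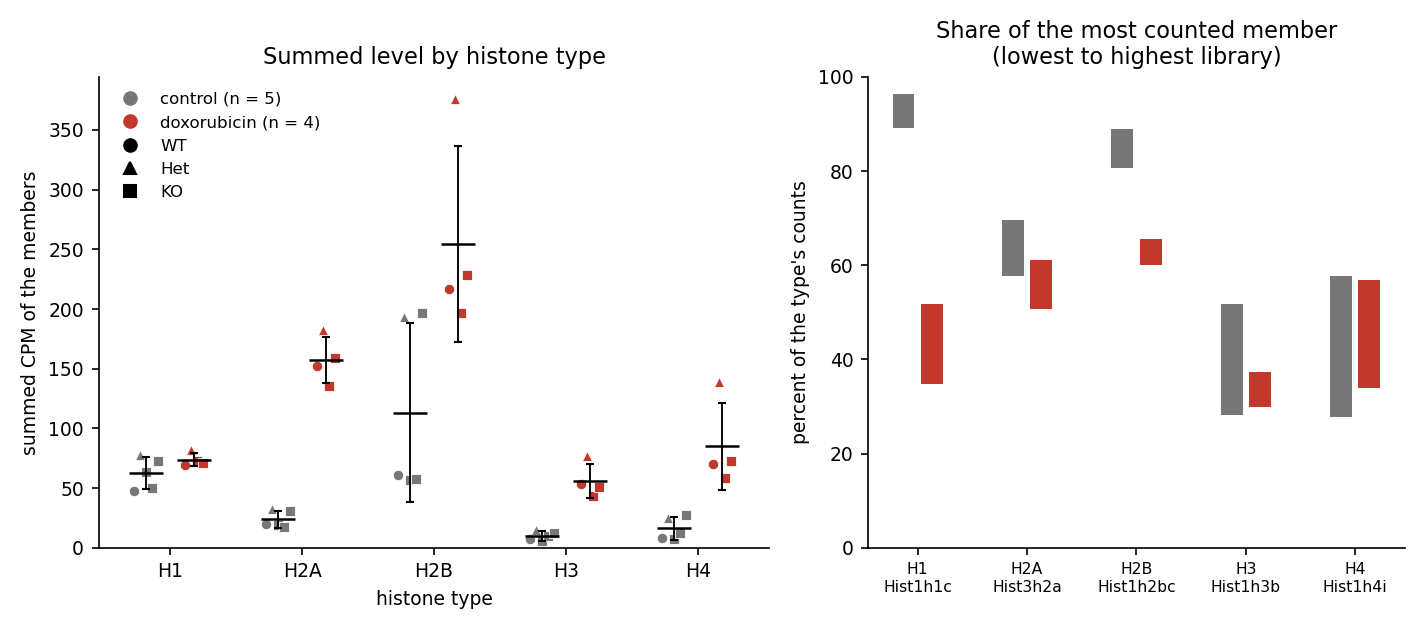
Left, summed CPM of the members of each histone type in each library (grey, 5 control; red, 4 doxorubicin; circles WT, triangles Het, squares KO), with the mean and 1 SD. Right, percent of a type's counts on the member with the most counts, as the range from the lowest to the highest library. The 2 groups do not overlap for H2A, H3 and H4, and the share of Hist1h1c is at least 89.2% in control and at most 51.8% with doxorubicin.

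Linker histone genes went in opposite directions. Hist1h1a, on chr13:23763666-23764406 and of 1 exon, had the largest log2 fold change of the tested members. It lay at 0.252, 0.328, 0.310, 0.846 and 0.496 CPM in the WT, Het, KO-1, KO-2 and KO-3 controls, from 5 to 15 counts each, and at 29.1, 35.9, 24.6 and 29.3 CPM in the WT, Het, KO-1 and KO-2 doxorubicin libraries. The groups were far apart, with a log2 fold change of 6.14 (SE 0.36, FDR 1.16e-05), or 70.4-fold. Only Hist1h1c and Hist1h1d of the H1 genes passed the filter in the control libraries taken alone. Hist1h1a and Hist1h1b did not, so their calls are a description of members that passed with the doxorubicin libraries included. Hist1h1c, on chr13:23738808-23740367 and also of 1 exon, is the H1 gene with the most counts. It lay at 44.7, 69.6, 61.4, 45.04 and 65.1 CPM in the same controls and at 28.4, 28.5, 37.7 and 29.4 CPM with doxorubicin. All 4 doxorubicin libraries were below all controls, and it fell by 0.82 on the log2 scale (SE 0.18, FDR 0.00435). In control, Hist1h1c stood at 57.2 CPM against 0.446 CPM for Hist1h1a. With doxorubicin they stood at 31.0 and 29.7 CPM.

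Hist1h1b, another replication-dependent H1 gene, rose from 0.705, 1.43, 0.414, 0.958 and 1.53 CPM in control to 6.07, 10.6, 5.51 and 6.38 CPM, with no overlap and a log2 fold change of 2.82 (SE 0.37, FDR 0.000320). Hist1h1d was at 0.805, 5.08, 1.19, 2.09 and 4.87 CPM in control and at 4.08, 5.37, 4.24 and 5.19 CPM with doxorubicin. The Het-1 and KO-3 controls thus reached the doxorubicin libraries, and its log2 fold change of 0.98 (SE 0.49) did not pass (FDR 0.119). Without the 3 libraries high in interferon-stimulated genes it was 1.80 (FDR 0.000264), and with a block for the library number 1.36 (FDR 0.0107), or 1.05 (FDR 0.0802) with the repeated doxorubicin library taken as that of KO-3. Hist1h1e lay at 0.362 to 1.56 CPM in control and 0.496 to 1.05 CPM with doxorubicin, with a log2 fold change of -0.13 (SE 0.40, FDR 0.798). Its annotated transcript overlaps that of Hist1h2be.

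The promoters of Hist1h1a and Hist1h1c are shown because these H1 genes went in opposite directions. The 250 bases before each annotated start are those of RefSeq (GRCm38.p6), both on the plus strand and written 5′ to 3′, and capitals mark the CCAAT box, the TATA box (letters TATAAA) and the H1 box (letters AAACACA), searched on both strands.

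Hist1h1a, chr13:23763418-23763667: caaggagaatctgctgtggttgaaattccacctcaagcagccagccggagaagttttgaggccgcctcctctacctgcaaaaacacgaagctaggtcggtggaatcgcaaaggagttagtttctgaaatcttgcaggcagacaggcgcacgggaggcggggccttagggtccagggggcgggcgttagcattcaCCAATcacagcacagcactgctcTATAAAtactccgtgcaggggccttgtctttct
Hist1h1c, chr13:23738557-23738806: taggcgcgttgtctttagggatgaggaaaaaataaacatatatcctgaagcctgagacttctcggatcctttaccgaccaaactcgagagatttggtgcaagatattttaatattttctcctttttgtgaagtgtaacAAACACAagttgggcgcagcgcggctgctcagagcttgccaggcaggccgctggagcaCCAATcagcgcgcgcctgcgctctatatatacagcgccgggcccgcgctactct

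CCAAT stood in both windows. The exact letters TATAAA were found in that of Hist1h1a and those of the H1 box in that of Hist1h1c. This contrast depends on the letters searched. The Hist1h1c window holds tatatata after CCAAT, and the Hist1h1a window holds aaacac, the H1 box letters without the last. A RefSeq promoter was matched for 61 of the 68 members. The H1 box was found in 5 of 6 H1 promoters, 2 of 17 H2A, 2 of 16 H2B and none of the 10 H3 and 12 H4 promoters, against 7.20% of 27025 genes. The letters ATTTGCA, the start of the octamer motif known from H2B promoters, were found in 7 of 17 H2A and 7 of 16 H2B promoters and in no H1, H3 or H4 promoter, against 4.02% of all genes. CCAAT was in all 6 H1, 17 H2A and 16 H2B promoters, in 8 of 10 H3 and in 3 of 12 H4 promoters, against 37.5% of all genes. TATAAA was in 4 of 6 H1, 7 of 17 H2A, 8 of 16 H2B, 4 of 10 H3 and 6 of 12 H4 promoters, against 14.3%. A match of letters is not a binding site, and a missing match does not show that a box is absent.

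Core histone genes of the H2A type, whose protein pairs with H2B in the nucleosome, rose in 10 of 11 tested members. Over all genes tested, 28.5% rose. Only Hist1h2ab, Hist1h2ad and Hist3h2a of the H2A genes passed the filter in the control libraries taken alone. Hist3h2a, which held 57.8% to 69.7% of H2A counts in control, went from 13.2, 19.7, 13.2, 10.2 and 17.6 CPM in the WT, Het, KO-1, KO-2 and KO-3 controls to 79.9, 92.5, 82.6 and 86.8 CPM in the WT, Het, KO-1 and KO-2 doxorubicin libraries. The groups were far apart, at a log2 fold change of 2.58 (SE 0.18, FDR 2.27e-05). The annotated Hist3h2a transcript overlaps Trim17. Hist1h2ac was at 0.403, 0.819, 0.310, 0.620 and 1.04 CPM in control and at 24.1, 25.5, 17.6 and 25.5 CPM with doxorubicin, a log2 fold change of 5.21 (SE 0.36, FDR 2.05e-05). It was thus a minor H2A gene in control and the second by mean CPM with doxorubicin, after Hist3h2a and close to Hist1h2ab (23.2 and 21.9 CPM). Hist1h2an and Hist1h2ag had too few control counts for a firm fold. Hist1h2an had 1, 1, 2, 1 and 1 counts in the controls and 73, 113, 41 and 82 with doxorubicin, a ratio of scaled counts of 65.8 with an exact 95% interval of 29.9 to 181 that covers counting error only. Hist1h2ag had 3, 1, 6, 1 and 3 counts in the controls and 100, 114, 71 and 106 with doxorubicin, a ratio of 35.7 (21.0 to 65.9). The H2A member that did not pass, Hist1h2ad, had a log2 fold change of 1.59 (SE 0.62, FDR 0.0569). Its control values of 0.755, 3.48, 0.569, 0.676 and 4.42 CPM again were high in Het-1 and KO-3, against 4.03, 11.7, 3.69 and 4.68 CPM with doxorubicin.

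H2B genes rose in 13 of 15 tested members, against 28.5% of all genes tested. Only Hist1h2bc, Hist1h2be, Hist1h2bj and Hist2h2be of the H2B genes passed the filter in the control libraries taken alone. The gene with the most counts of all 68, Hist1h2bc, did not pass. It lay at 53.5, 171, 50.6, 46.6 and 175 CPM in control and at 131, 246, 127 and 143 CPM with doxorubicin, with a log2 fold change of 0.76 (SE 0.41, FDR 0.146). The Het-1 and KO-3 controls were above 3 of the 4 doxorubicin libraries, and the other 3 controls were below all 4. Without the 3 libraries high in interferon-stimulated genes, the log2 fold change was 1.45 (FDR 7.54e-07), and without the KO-3 control alone it was 1.24 (FDR 0.000102). In same-numbered libraries, doxorubicin was above control in WT, Het-1, KO-1 and KO-2, and with a block for the number the log2 fold change was 1.24 (FDR 0.000360). With the repeated doxorubicin library taken as that of KO-3, where it lay below the control, the block gave 0.76 (FDR 0.0553).

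Other H2B genes had few counts in control and many with doxorubicin. Hist1h2bn went from 0.201, 0.450, 0.259, 0.733 and 0.722 CPM to 16.4, 22.1, 11.0 and 15.6 CPM, a log2 fold change of 5.15 (SE 0.43, FDR 4.31e-05). Hist1h2bh went from 0.302, 0.450, 0.104, 0.620 and 0.406 CPM to 8.06, 8.61, 8.05 and 9.55 CPM, a log2 fold change of 4.54 (SE 0.41, FDR 5.97e-05). In neither gene did the groups overlap. Hist1h2bk had 2, 5, 0, 7 and 2 counts in the controls and 79, 113, 62 and 113 with doxorubicin, a ratio of 29.3 (17.8 to 51.8). Hist1h2bl had 3, 6, 1, 8 and 6 counts, then 67, 188, 39 and 78, a ratio of 19.8 (13.1 to 31.3). For Hist1h2bm the counts were 3, 4, 2, 6 and 2, then 72, 84, 45 and 43, a ratio of 18.3 (11.2 to 32.0). All 3 were called higher, at FDR 0.000282, 0.000349 and 0.000127. Hist2h2bb, which did not pass (log2 fold change 2.81, SE 1.17, FDR 0.0707), had 24 counts in the KO-2 control and 0 to 2 in the other controls, against 17 to 60 with doxorubicin.

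**Figure D3:**
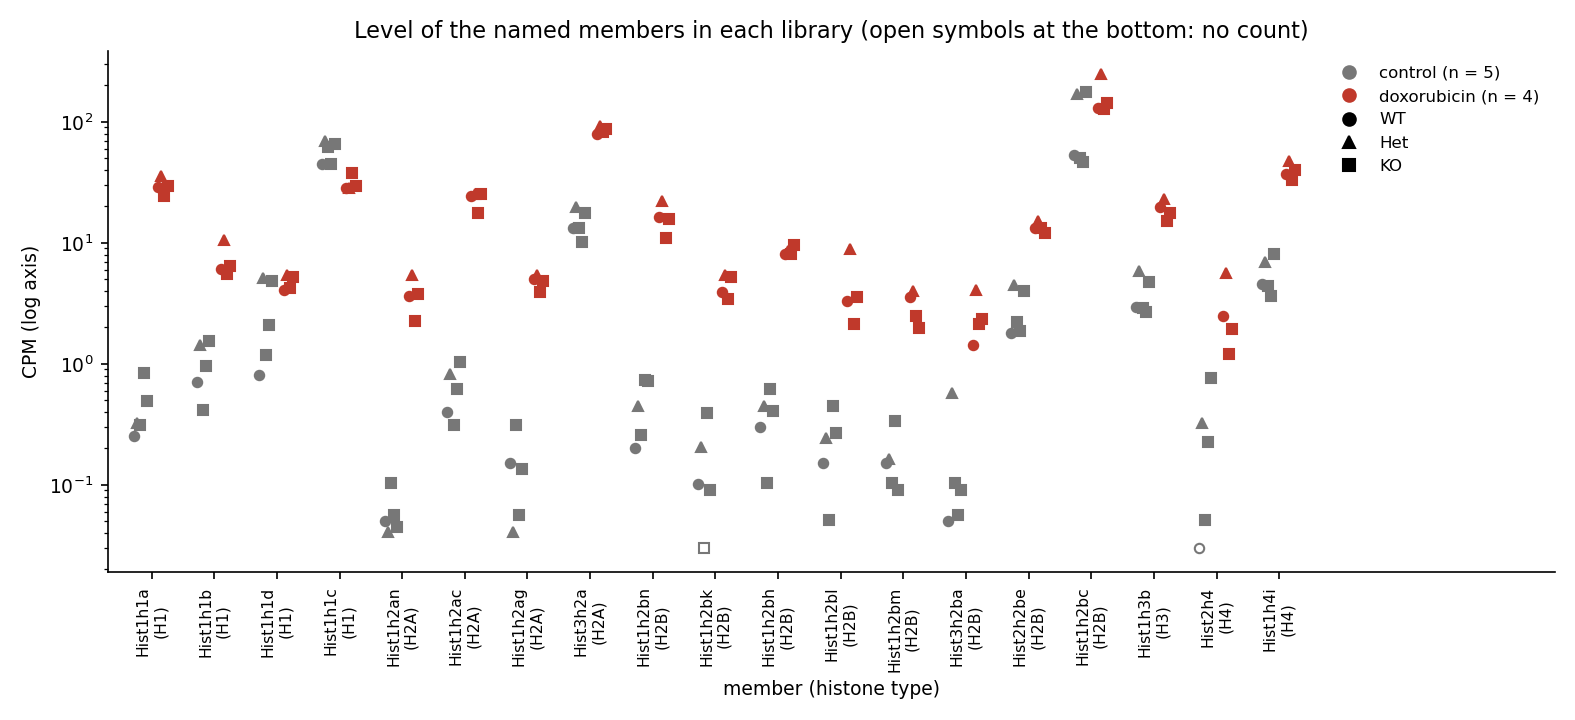
CPM of the 19 named members in each library on a log axis (grey, 5 control; red, 4 doxorubicin; circles WT, triangles Het, squares KO; open symbols at the bottom are libraries with no count). The red points lie above the grey ones except for Hist1h1c, where they lie below, and Hist1h1d and Hist1h2bc, where the groups overlap.

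All 9 tested H3 genes and 9 of 10 tested H4 genes rose, against 28.5% of all genes tested. Of these H3 and H4 genes, only Hist1h3b, Hist1h3c, Hist1h3d, Hist1h4h and Hist1h4i passed the filter in the control libraries taken alone. The H3 gene with the most counts, Hist1h3b, was at 2.97, 5.85, 2.90, 2.71 and 4.78 CPM in the WT, Het, KO-1, KO-2 and KO-3 controls and at 19.8, 23.0, 15.1 and 17.7 CPM with doxorubicin, a log2 fold change of 2.33 (SE 0.24, FDR 0.000102). The H4 gene with the most counts, Hist1h4i, was at 4.58, 6.92, 4.40, 3.61 and 8.07 CPM in control and at 37.1, 47.1, 33.1 and 40.3 CPM with doxorubicin, a log2 fold change of 2.87 (SE 0.26, FDR 5.89e-05). The groups did not overlap in either gene. The log2 fold changes of the H3 members ran from 1.44 to 3.96 and those of the H4 members from 1.42 to 3.45, ranges that overlap each other and those of H2A (1.59 to 5.86) and H2B (0.76 to 5.15). The H4 gene that did not pass, Hist1h4h (log2 fold change 1.42, SE 0.64, FDR 0.0918), was at 2.52, 12.3, 1.5, 2.26 and 13.4 CPM in control and at 12.1, 41.9, 8.60 and 12.2 CPM with doxorubicin. As in Hist1h1d, Hist1h2ad and Hist1h2bc, its high controls were Het-1 and KO-3. Hist1h4c was called higher (FDR 0.0398) although its groups overlapped.

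Per kilobase of annotated exon, Hist1h2bc was the highest member in both groups, at 86.0 CPM per kb in control and 140 with doxorubicin. In control it was followed by Hist1h1c at 36.7, Hist1h4h at 13.6, Hist1h2ab at 9.16, Hist1h4i at 7.59 and Hist3h2a at 6.88. With doxorubicin the next were Hist1h4i at 54.2, Hist1h2ab at 46.4, Hist1h2bn at 42.7, Hist1h1a at 40.1 and Hist3h2a at 39.8, levels that lie close together. Hist1h1c was at 19.9. Lengths are those of GENCODE, which may differ from those of the annotation used for counting.

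Members outside the Hist1 cluster were fewer, and only Hist2h2be and Hist3h2a of them passed the filter in the control libraries taken alone. Of all genes tested, 28.5% rose. The Hist2 cluster on chr3:96219865-96270132 holds 10 members, of which 3 were tested and 2 rose, Hist2h2be and Hist2h4. Hist2h2be was at 1.81, 4.46, 2.23, 1.86 and 3.97 CPM in control and at 13.3, 15.0, 13.2 and 12.1 CPM with doxorubicin, a log2 fold change of 2.30 (SE 0.29, FDR 0.000281). Hist2h4 had 0, 8, 1, 4 and 17 counts in control and 50, 118, 22 and 42 with doxorubicin, a log2 fold change of 3.27 (SE 0.85, FDR 0.0104), and it missed the threshold without the Het control (FDR 0.0518) or without the Het doxorubicin library (FDR 0.0538). In the Hist3 cluster on chr11:58948920-58956830, both tested members rose. Hist3h2ba had 1, 14, 2, 1 and 2 counts in control, the 14 in Het, and 29, 86, 39 and 51 with doxorubicin, a ratio of 13.1 (8.26 to 21.9). Hist4h4, the single Hist4 member, on chr6:136801553-136804415, rose from 0.166 ± 0.114 to 1.89 ± 0.913 CPM, with a log2 fold change of 3.45 (SE 0.48, FDR 0.000431).

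The Hist1 cluster lies on chromosome 13 in 2 groups of genes more than 200 kb apart. In the group on chr13:21715763-22043676, which runs from Hist1h2bl to Hist1h2bj, all 18 tested members of 23 rose, with a median log2 fold change of 3.69 and a range of 2.003 to 5.86. In the group on chr13:23531050-23934851, from Hist1h4h to Hist1h2aa, 20 of 26 tested members rose and 1 fell, with a median of 2.11 and a range of -0.82 to 6.14. The ranges overlap. Hist1h1c and 5 of the 6 members that did not pass (Hist1h1e, Hist1h2bc, Hist1h1d, Hist1h4h and Hist1h2ad) lie in the second group, together with Hist1h1a.

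**Figure D4:**
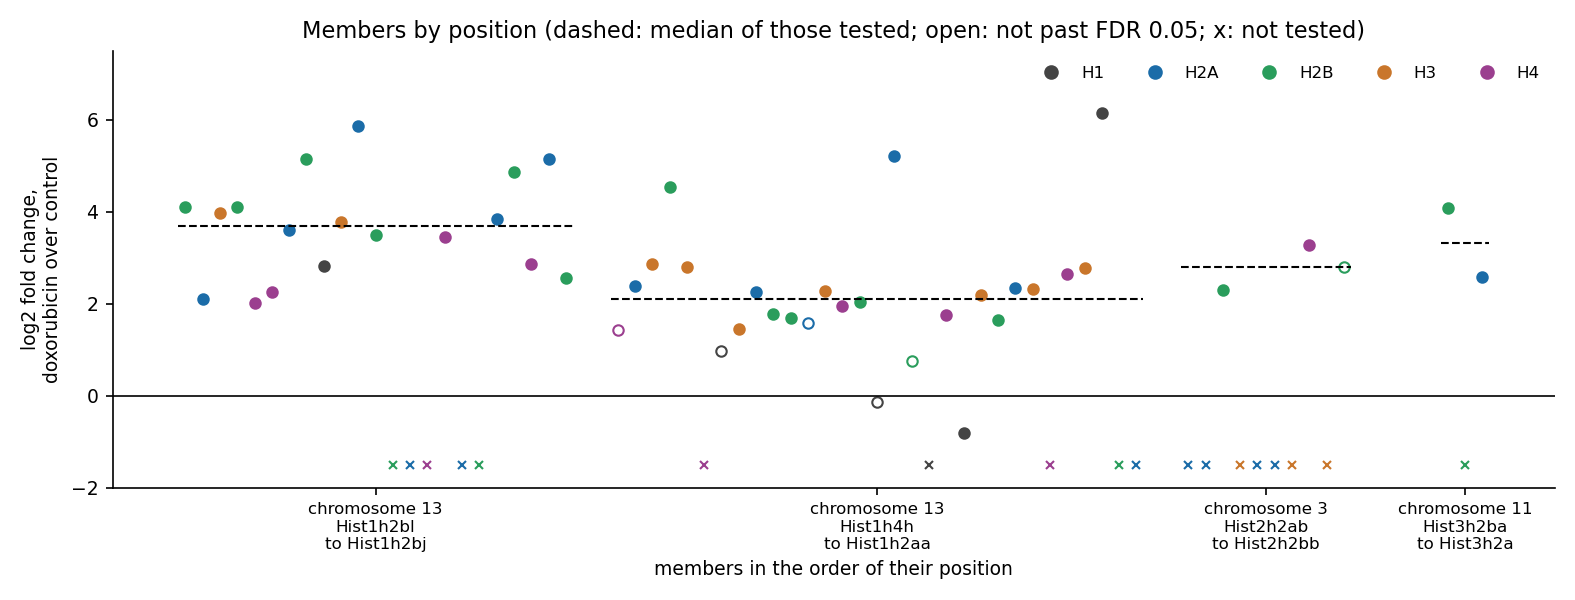
Log2 fold change of doxorubicin over control of the members of the Hist1, Hist2 and Hist3 clusters, in the order of their position on chromosomes 13, 3 and 11 and coloured by histone type. Dashed lines are medians of the tested members, open symbols did not pass an FDR of 0.05, and crosses at the bottom were not tested. The median is 3.69 in the first group and 2.11 in the second. Most tested members of the first group, and most of the second, did not pass the filter in the control libraries taken alone.

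Many H2A and H2B genes are divergent neighbours that share the DNA between their starts. In GENCODE, 13 pairs of members had starts on opposite strands at most 500 bases apart, and all 13 were pairs of H2A with H2B, 173 to 306 bases apart. In the 8 pairs with both partners tested, the partners' log2 fold changes differed by 0.11 to 4.45, with a median gap of 1.78. The widest gap was that of Hist1h2ac and Hist1h2bc, whose starts lie 251 bases apart. Hist1h2ac went from 0.638 to 23.2 CPM on average and Hist1h2bc from 99.4 to 162 CPM. For Hist1h2ag and Hist1h2bj the log2 fold changes were 5.14 and 2.55, and for Hist1h2an and Hist1h2bp they were 5.86 and 3.49, the H2A partner being higher. In Hist1h2ak and Hist1h2bn (3.60 and 5.15), Hist1h2ah and Hist1h2bk (3.84 and 4.85) and Hist1h2ai and Hist1h2bl (2.09 and 4.11) it was the H2B partner. Which partner was higher is uncertain in several pairs, as folds rest on few control counts. Over all controls, Hist1h2an had 6 counts, Hist1h2bp 18, and Hist1h2ag and Hist1h2ak 14 each. For Hist1h2ah and Hist1h2bk the SEs were 0.52 and 0.62. The narrowest gap was between Hist1h2ad and Hist1h2bf, at 1.59 and 1.70. Over the 8 pairs, the partners' log2 fold changes had a Pearson correlation of -0.01 and a Spearman correlation of -0.02. These describe genes that share libraries, and counting error in the low controls also enters them.

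**Figure D5:**
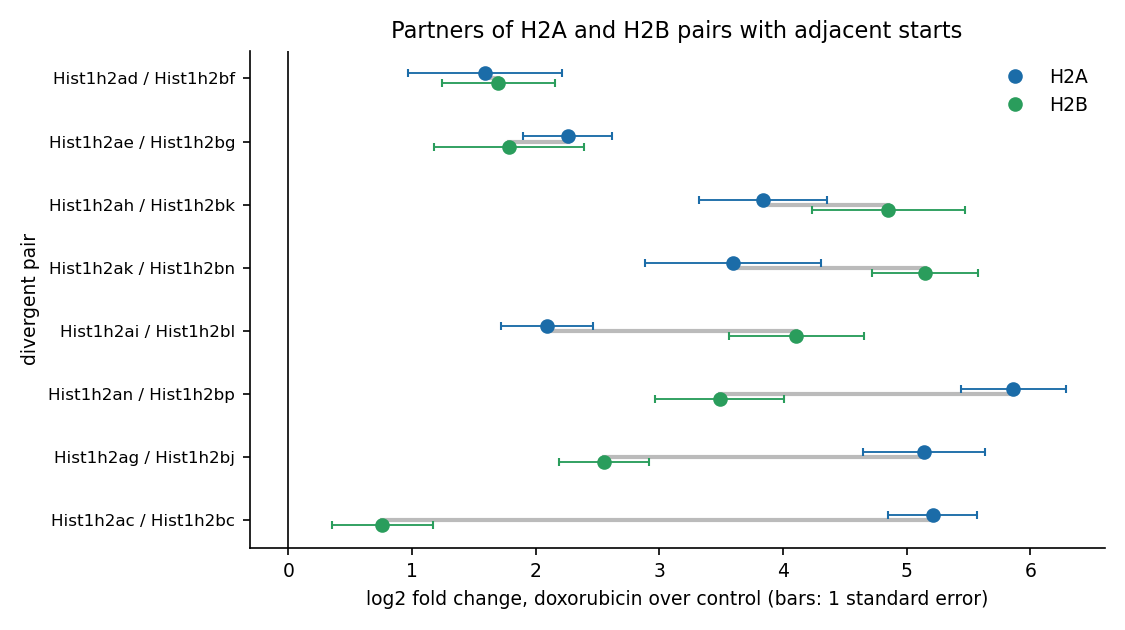
Log2 fold change of doxorubicin over control of the partners of 8 divergent pairs of H2A (blue) and H2B (green) genes, with bars of 1 standard error and a grey line between partners. The gap is widest for Hist1h2ac and Hist1h2bc (5.21 and 0.76) and narrowest for Hist1h2ad and Hist1h2bf (1.59 and 1.70).

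The calls are given here by the annotated 3′ end, as a description. Of all genes tested, 28.5% rose and 28.1% fell. Most tested members of each class below did not pass the filter in the control libraries taken alone. Of 13 members whose transcript holds AATAAA, the usual poly(A) signal, after the stem-loop, 11 were tested, 9 rose and 1 fell (Hist1h1c), with a median log2 fold change of 2.58. Of 30 with a stem-loop and no AATAAA after it, 21 were tested and 18 rose, with a median of 2.27. Members with transcripts of at most 100 bases past the stem-loop rose in 11 of 13 tested (median 2.35), and those with longer ones in 16 of 19 (median 2.26). Where the stem-loop letters were not found, 16 of 18 tested members rose (median 3.17), and only Hist1h2bc and Hist2h2be of these passed in control alone. Many members without the letters have short annotated transcripts that may leave out the 3′ end, so they are not a class of genes without a stem-loop.

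Of the 68 members, 63 have 1 exon, and the calls over other genes are given here by exon number and span, as a description. Of 284 other protein-coding genes of 1 exon, 52.1% rose and 19.4% fell, with a median log2 fold change of 0.80. Of 809 other genes spanning at most 3 kb, 39.8% rose and 15.6% fell (median 0.44), while of 1991 genes spanning over 100 kb, 22.5% rose and 32.9% fell (median -0.19). The part of gene length in the members' values was not tested. In the members, 47 of 1 exon were tested, 41 rose and 1 fell, with a median of 2.64.

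Within KO, the genotype with more than 1 library per treatment, 28 of 51 tested members rose with doxorubicin and 0 fell by edgeR at an FDR under 0.05, against 18.5% and 15.9% of 14904 genes. The median log2 fold change was 2.31 over the members and -0.03 over all genes. Hist1h1a had the smallest FDR of the members there, with a log2 fold change of 5.64 (SE 0.45, FDR 0.00217), followed among the H2A genes by Hist3h2a at 2.66 (SE 0.28, FDR 0.00330). Hist1h1c had a log2 fold change of -0.74 (SE 0.26, FDR 0.0741). With a library left out, the calls over all genes moved with those of the members. In the analysis as given, 5130 of 14904 genes were called in either direction. Without the KO-1 doxorubicin library 4 members rose and 330 of 15529 genes were called, and without KO-2 doxorubicin it was 1 member and 141 of 15466 genes. Both leave 1 doxorubicin library, which is assumed to vary like the controls. Without the KO-3 control 45 members rose and 1 fell, with 9992 of 14697 genes called.

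No member was called between genotypes. Between KO and WT, 0 of 50 tested members passed by edgeR, against 0% of 14883 genes, with 0 members and 84 genes at an unadjusted p under 0.05, and DESeq2 also called 0 members. For the interaction of KO against WT with doxorubicin, 0 members passed, again against 0%, with 0 members and 38 genes at an unadjusted p under 0.05, and DESeq2 called 0. With 1 WT library per treatment, the interaction fit takes its spread from the KO libraries, and an absence of calls in either fit does not show that the genotypes were alike.

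Genes for the making of histone mRNA were lower or did not pass. Of 16 tested genes of histone mRNA transcription and 3′ processing, 0 rose, 11 fell and 5 did not pass, by edgeR and with the same counts by DESeq2, with a median log2 fold change of -0.57. Of all genes tested, 28.5% rose and 28.1% fell by edgeR. The largest decreases were those of Coil, the scaffold of Cajal bodies (-2.11, SE 0.30, FDR 0.000460), Lsm10, a subunit of the U7 particle that directs histone mRNA cleavage (-1.32, SE 0.29, FDR 0.00469), Cstf2, a cleavage factor (-1.21, SE 0.19, FDR 0.000814), and Ncbp1, of the cap-binding complex (-1.14, SE 0.23, FDR 0.00328). Slbp, whose protein binds the stem-loop, went from 25.5 to 48.4 CPM in control to 15.0 to 20.4 CPM with doxorubicin (-1.13, SE 0.23, FDR 0.00341), and Npat, the coactivator of histone genes, from 31.6 to 43.4 CPM to 15.5 to 23.4 CPM (-0.80, SE 0.13, FDR 0.000889). These 2 were singled out after their values were seen, and neither gene's groups overlapped.

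Among 18 histone chaperones, 3 rose, 8 fell and 7 did not pass, with a median of 0.04, where 28.5% of all genes tested rose and 28.1% fell. Atrx, which deposits H3.3 with Daxx, fell most (-2.23, SE 0.15, FDR 1.83e-05), and the centromere chaperone Hjurp (-1.59, SE 0.41, FDR 0.00965) fell too. The large subunit of the replication-coupled chaperone CAF-1, Chaf1a, fell (-1.46, SE 0.23, FDR 0.000813), while another subunit, Chaf1b, rose (1.16, SE 0.21, FDR 0.00180). Of 11 listed histone genes outside the clusters, 3 rose, 3 fell and 5 did not pass (5, 3 and 3 by DESeq2), with a median of -0.21. The edgeR counts were near the shares of all genes tested. H1f0, a linker histone known from resting cells, fell from 67.0 to 94.3 CPM in control to 8.09 to 11.8 CPM (-2.97, SE 0.13, FDR 3.80e-06), and H1fx rose (1.57, SE 0.30, FDR 0.00219). H2afz (-0.94, SE 0.30, FDR 0.0254) and H2afx (-0.91, SE 0.25, FDR 0.0143) fell.

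Of 19 S-phase genes, 6 were higher, 6 lower and 7 not past the threshold, at a median of -0.24, where 28.5% of all genes tested were higher and 28.1% lower. Rrm2, a subunit of ribonucleotide reductase, rose (1.18, SE 0.31, FDR 0.0109). Rrm1, the partner of Rrm2 (-1.70, SE 0.46, FDR 0.0129), and Mcm2 of the replicative helicase (-1.68, SE 0.38, FDR 0.00547) fell. Of 10 p53 targets, 1 rose, Eda2r (0.47, SE 0.15, FDR 0.0247), and 3 fell, Phlda3 (-1.43, SE 0.18, FDR 0.000272), Zmat3 (-0.77, SE 0.21, FDR 0.0145) and Cdkn1a (-0.64, SE 0.18, FDR 0.0144), at a median of -0.22. Of 10 interferon-stimulated genes, 0 passed by edgeR and 0 by DESeq2, with 0 at an unadjusted p under 0.05 and a median of -0.64.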

How the data were processed

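Per the labels and the methods, single 150-base reads from 4 runs per library were pooled by the authors, aligned to mm10 with HISAT2 (2.1.0 in the submitters' processing notes) and counted over genes of an iGenomes annotation by HTSeq (union mode). The strand setting and the handling of multi-mapped reads are not given in the sources used here. The deposited values are raw counts of 24062 genes, with no normalization or filter. Of 10 columns, 1 that was identical to another was left out. In the study's text the KO libraries are those of separate embryos, and WT and Het have 1 library per treatment.

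Members and gene lists were chosen with earlier results of these data known. Libraries were scaled by TMM, genes with low counts were dropped by filterByExpr over the 2 treatments, and edgeR's quasi-likelihood test (two-sided, genotype plus treatment) was run on all 9 libraries with edgeR 4.0.16 in R 4.3.3. FDR is the Benjamini-Hochberg value over all genes tested. Within KO, treatment was the single term, and the interaction was added in another fit. CPM are counts per 1000000 of the TMM-scaled library size. Folds against groups at 0 used a floor of 3 counts per library. Totals were 15560728 to 24122414, which puts the floor at 0.123 to 0.169 CPM. PCR copies of a molecule cannot be told apart in these counts, so intervals and floors reflect counting error alone. Values per library are given for at most 10 called members in each direction, by size, at an average of at least 1 CPM, for the member with the most counts of each type, and for H1 members and members outside Hist1 at that level. Members that did not pass and Hist1h1t were added after their values were seen. Positions and transcripts are those of GENCODE (GRCm38) and promoters those of RefSeq. The scripts were checked on simulated counts. Alternatives were DESeq2 1.42.0, other scaling, filters and thresholds, a block for the library number, and each library left out. Some values are not reported here.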

Additional observations from a re-analysis of the deposited data

Results flagged for a closer look

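In 58 groups of values per library (19 members, the summed levels and 2 treatments), 5 had 1 library whose gap to the next was large for the range of its group. Chance alone marks about 1 group in 20. In the doxorubicin group of Hist1h1b, an H1 gene, Het-1 stood at 10.6 CPM and the nearest library at 6.38, a gap of 0.83 of the range. Het-1 was also the high library of Hist1h2bc with doxorubicin, at 246 CPM against 143 (0.867 of the range). In the control group of Hist3h2ba, Het-1 stood at 0.573 CPM against 0.104 (0.898). These 3 gaps belong to libraries high in interferon-stimulated genes. KO-1 was the high doxorubicin library of Hist1h1c, at 37.7 CPM against 29.4 (0.887), and this value was still below all controls. The control group of Hist1h2an had KO-1 at 0.104 CPM against 0.0564 (0.753), a difference between 2 counts and 1.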

How the results depend on the processing

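Over all genotypes, 43 members rose in the analysis as given (8421 of 14883 genes called in either direction), 46 with DESeq2 (9026), 43 with upper-quartile scaling (8306), 48 with every gene that had a count (9527 of 20958), 37 at a minimum of 1 CPM in 4 libraries (7856 of 13832), 36 at an FDR under 0.01 (6266), 43 with library sizes without Rn45s (8400 of 14857), and 38 to 47 with each library left out (6855 to 10611), and 1 fell in each. With a replicate block for the library number, 48 rose and 1 fell (10674). Within KO, where 28 rose (5130 of 14904 genes called), 14 rose at an FDR under 0.01 (1911), 31 with DESeq2 (6088), and 1 to 45 with 1 library left out (141 to 9992), with 0 to 1 lower. The replicate block gave 47 higher and 1 lower there, with 11239 of 14904 genes called. The number does not say that libraries share an embryo, and the difference between KO-1 and KO-2 had a correlation of 0.38 over 14883 genes between control and doxorubicin. With the repeated library taken as that of KO embryo 3, an alternative added once the values were known, the block gave 46 over all genotypes (8350).

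Without the member with the most counts of each type, log2 ratios of sums were 2.69 for all members (1.47 with them), 3.03 for H1 (0.24), 2.75 for H2B (1.17), 2.70 for Hist1 (1.32) and 3.76 for Hist3 (2.56). Hist1h2bc and Hist1h1d passed the threshold in 3 of 18 alternatives (the replicate block, without the KO-3 control, and without the 3 libraries high in interferon-stimulated genes), and Hist2h4 missed it in 3. No direction turned. Precision is limited by counts: in control, many members had under 10 counts per library.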
